A study of Drosophila melanogaster with 4 samples.

Results

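Clusters of intermediate width, between short promoter-sized sites and long domains, were a large class in the map of serine 5-phosphorylated RNA polymerase II in cultured fly wing disc cells. They numbered 1332 of the 5309 enriched clusters in the study's combined list, or 25.1%. Members were chosen by the measured lists themselves. Each had a positive score in the combined list, lay on arm 2L, 2R, 3L or 3R, spanned at least 3000 and under 8000 bp, and overlapped by at least 1 bp an enriched cluster in each of the 2 replicate lists. Width, arm, the sign of the score and presence in both replicates are therefore not findings, and nothing below tests them. Of the 1354 clusters of that width on these arms, 22 were dropped for missing from a replicate. Of these, 14 were in replicate 1 only, 5 in replicate 2 only and 3 in neither. The dropped clusters had a median score of 0.368 and a median width of 3.34 kb.

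RNA polymerase II carries a long tail of repeated heptads on its largest subunit. The kinase of the general factor TFIIH phosphorylates serine 5 of these repeats as the enzyme leaves the promoter, and the mark helps to recruit the capping enzyme. In flies many genes hold such polymerase paused just downstream of the start site, so the mark is best known from promoters, while some genes carry it further into the transcribed body. A mapped cluster is a stretch of DNA enriched in the precipitate, and adjacent promoters or a marked gene body can both lengthen it.

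Chromatin came from CME-W1-Cl.8+ (Clone 8), a male cell line with the third instar dorsal mesothoracic disc as its labelled tissue, fixed with formaldehyde and precipitated with the rabbit polyclonal antibody ab5131. All 4 libraries, 2 of ChIP DNA and 2 of input DNA, are of the same cells with no treatment in the labels, so there are no conditions to compare. Enriched clusters were listed for each ChIP library and for the combined set, and the input libraries enter only as far as the authors used them. Read depth is unknown, the replicates may be technical, and positions are on FlyBase release 5. Genes under the clusters are not named, since the gene table at hand follows release 6.

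Medium clusters held more of the marked sequence than any other width class on the autosome arms. They covered 6.32 Mb, 6.54% of the 96.6 Mb of the 4 arms and 38.4% of all bases in the combined clusters there. Compact clusters under 3000 bp held 22.8% of those bases, broad ones of 8000 bp and over held 31.6%, and clusters missing from a replicate held 7.12%. The median member was 4.44 kb wide, with quartiles of 3.61 and 5.72 kb. Numbers fell steadily across the width range, from 497 members (37.3%) at 3 to 4 kb, through 346, 213 and 170, to 106 (7.96%) at 7000 bp and over. No gap in the widths separated the class from its neighbours, and its bounds are a convention of the rule.

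**Figure D1:**
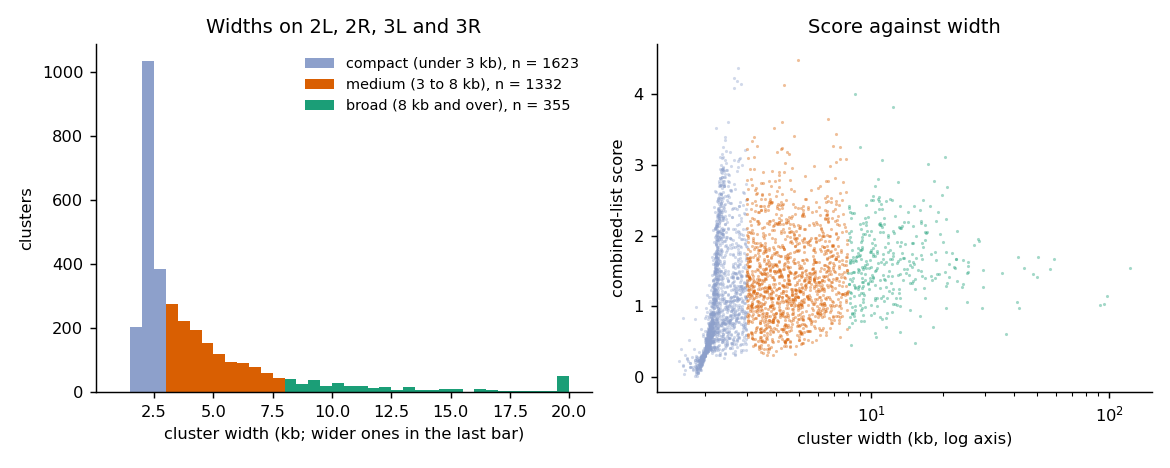
Left, histogram of the widths of combined clusters found in both replicates on 2L, 2R, 3L and 3R, in steps of 0.5 kb, coloured by class. Right, the combined-list score of each cluster against its width on a log axis. The 1332 medium clusters form the falling shoulder beside the peak of compact clusters, and their scores, between 0.311 and 4.48, lack the steep rise with width of the compact class.

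The values at the bounds show how continuous the range was. Just inside the lower bound, 2 clusters of 3001 bp on 2L scored 1.59 and 1.43. Just outside it, clusters of 2999 bp on 3L and 3R scored 1.24 and 1.84. At the upper bound, members of 7963 bp on 3R and 7975 bp on 2L scored 1.52 and 1.22, and the clusters next outside, both on 3R, were 8033 and 8051 bp wide and scored 1.48 and 0.714. The 7975 bp member consisted of 2 clusters in replicate 1, and the other 7 of these clusters were unbroken in both replicates.

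Every arm carried medium clusters in nearly the same proportion. They were 40.1% of the clusters found in both replicates on 2L (291 members), 40.4% on 2R (344), 40.2% on 3L (318) and 40.2% on 3R (379). Density per Mb followed the density of clusters in general, with 16.3 members per Mb on 2R, 13.6 on 3R, 13.0 on 3L and 12.6 on 2L, and 13.8 over the 4 arms. When the same width and overlap rule was applied to each replicate list by its own widths, density was 12.9 per Mb in replicate 1 (1245 clusters) and 13.3 in replicate 2 (1281 clusters), a mean of 13.1 ± 0.263 (SD, n = 2). Median widths ranged only from 4.36 kb on 3R to 4.59 kb on 2R. The median score was lowest on 3L, at 1.30, and highest on 2R, at 1.41. Differences between arms were not tested.

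Along the arms the class was uneven. Among 95 full windows of 1 Mb, the median window held 14 members, with quartiles of 10 and 17. The window of 2L from 10 to 11 Mb held the most, 33 of its 49 clusters found in both replicates, or 67.3%. The window of 2L from 14 to 15 Mb held none among its 9 clusters. On 3R from 15 to 16 Mb, 3 of 26 clusters were medium, or 11.5%, although clusters as such were not scarce there. These windows were picked for their counts after these had been seen.

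Most members were a single cluster of similar extent in each replicate. Of the 1332, 1143 (85.8%) were 1 cluster in both lists, and 824 of these (61.9% of all members) were also of medium width in both. Across the 1143, the median width was 4.23 kb in the combined list, 3.84 kb in replicate 1 and 3.87 kb in replicate 2. Replicate 1 was the wider in 565 of them and replicate 2 in 574, so neither list was systematically broader. The replicate widths differed by a median of 222 bp, and 753 members (65.9%) had widths within 10% of each other. A tail disagreed, with 170 members (14.9%) more than 1 kb apart. Spearman's rho between the replicate widths was 0.78 across these members, a description of clusters that share a caller and an antibody.

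The combined list drew these clusters wider than either library alone. In 858 of the 1143 members (75.1%) the combined cluster exceeded both replicate widths, and in 1 it was narrower than both. Where a replicate had a single cluster, 1011 of 1181 (85.6%) were narrower than the member in replicate 1 and 1107 of 1238 (89.4%) in replicate 2. The edges still lay close together. Starts were offset by a median of 63 bp in replicate 1 and 55 bp in replicate 2, and ends by 53 and 44 bp. Replicate clusters covered a median of 95.4% of a member's bases in replicate 1 and 95.6% in replicate 2, and less than 50% in 19 and 18 members. No source used here says how the combined list was built.

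**Figure D2:**
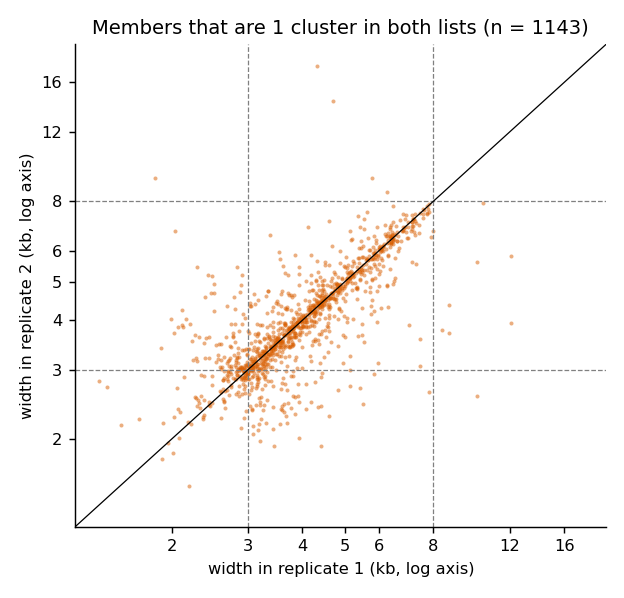
Width of each of the 1143 members that were 1 cluster in both lists, in replicate 1 (x) and in replicate 2 (y), both in kb on log axes. Dashed lines mark 3 and 8 kb and the solid line equal width. Most points hug the line of equal width, and 106 lie in the lower left field, under 3 kb in both replicates.

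Some members owed their class to that widening alone. In 106 of them (7.96%) the cluster was unbroken and under 3000 bp in both replicates. Their median width was 2.69 kb in replicate 1, 2.73 kb in replicate 2 and 3.19 kb in the combined list, and 89 of the 106 were below 4000 bp. A further 202 members (15.2%) were under 3000 bp in exactly 1 replicate. At the other bound, 13 members were 8000 bp or wider in at least 1 replicate, although narrower in the combined list.

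The other 189 members overlapped several clusters in at least 1 replicate. A member counted as fused when it overlapped 2 or more clusters of a replicate list, whatever their widths. This includes clusters that lay mostly outside the member and reached in from a neighbour. This held for 151 members (11.3%) in replicate 1 and 94 (7.06%) in replicate 2, against 9.37% and 6.92% of all 3310 combined clusters found in both replicates on these arms. In at least 1 replicate it held for 189 members, or 14.2% (Wilson 95% interval 12.4 to 16.2%, which treats clusters as independent and covers counting error only), against 11.9% of the 3310. The count depends on the library, since 95 members were broken up in replicate 1 only, 38 in replicate 2 only and 56 in both. Without replicate 1 the share was 7.11%, and without replicate 2 it was 11.3%. With clusters within 1 kb merged it was 28.3%. With only pieces counted that lay at least 50% within the member it was 13.6%. Among compact clusters 3 of 1623 were fused and among broad ones 202 of 355, so the share over all widths mixes very different classes.

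Within the class, fusion rose with width. At 3 to 4 kb, 1.81% of members were fused in at least 1 replicate. The share was 10.7% in the next 1000 bp, then 22.5% and 28.8%, and 43.4% at 7000 bp and over. Both replicates showed the same climb, from 1.41 to 34.9% in replicate 1 and from 0.805 to 26.4% in replicate 2. Wider members have more room for several clusters, and the part of this in the climb was not tested.

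**Figure D3:**
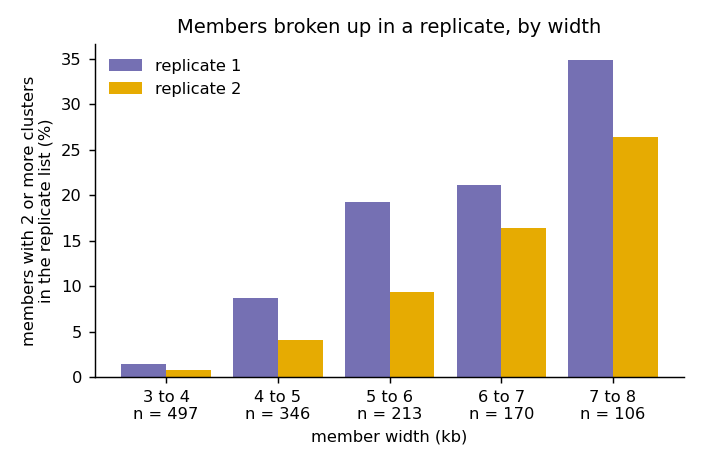
Percentage of members that overlapped 2 or more clusters of replicate 1 or of replicate 2, for members grouped by width in steps of 1 kb (number of members under each step). Bars are single percentages with no error bar. Replicate 1 stood above replicate 2 at every width, and both reached their highest share, 34.9 and 26.4%, at 7 to 8 kb.

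The pieces of fused members were mostly compact clusters lying a short distance apart. Replicate 1 had 308 pieces in its 151 fused members and replicate 2 had 189 pieces in its 94. The median piece was 2.40 kb wide in replicate 1 and 2.51 kb in replicate 2, and 70.8 and 65.6% of the pieces were under 3000 bp. Gaps between them had a median of 246 bp in replicate 1, with quartiles of 90 and 622 bp, and of 295 bp in replicate 2, with quartiles of 94 and 601 bp. At most 1 kb separated the pieces in 136 of 157 gaps (86.6%) of replicate 1 and in 81 of 95 (85.3%) of replicate 2. The largest piece held a median of 59.4 and 59.9% of the bases that the pieces covered. Fused members were thus usually an unequal pair, and 6 had 3 pieces in replicate 1 and 1 had 3 in replicate 2.

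Where both replicates broke a member, their gaps often lay close together. Of the 56 members fused in both, 39 (69.6%) had gaps that shared at least 1 base, and in 44 the gap centres lay within 500 bp. The median distance of the gap centres was 193 bp. Each distance is that of the closest pair of gaps in the member. How close gaps would lie within members of such widths in any case was not tested. Where only 1 replicate broke the member, the cluster of the other usually ran across the whole gap. This was so in 83 of the 95 members broken in replicate 1 only (87.4%) and in 33 of the 38 broken in replicate 2 only (86.8%).

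The 5 members with the most pieces, 5 each over both replicates, held pieces of unequal score. On 2L from 20059572 to 20067502 (7.93 kb, score 1.19), replicate 1 listed pieces of 2.97 and 4.09 kb, 600 bp apart, with scores of 1.63 and 1.13. Replicate 2 listed 3.00, 1.50 and 2.20 kb there, with scores of 1.42, 0.453 and 1.09, and its first gap of 766 bp overlapped that of replicate 1. Both lists thus broke after the first piece, and only replicate 2 broke again.

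On 3R from 26707898 to 26715798 (7.90 kb, score 1.18), replicate 1 had pieces scoring 0.487, 0.533 and 1.51, and replicate 2 had 2 pieces scoring 0.621 and 1.60. The high score lay in the last piece in both replicates. On 3L from 14020998 to 14028810 (7.81 kb, score 1.10), the gaps in replicate 1 were only 82 and 84 bp, beside 1 gap of 491 bp in replicate 2. The last piece was the weak one in both, at 0.406 and 0.432.

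At the last 2 of these sites the pieces again differed in score. On 3L from 8296172 to 8304044 (7.87 kb, score 1.06), replicate 1 had pieces scoring 0.522, 0.417 and 1.47, and replicate 2 had pieces scoring 0.786 and 1.39. On 2L from 20090178 to 20098076 (7.90 kb, score 0.685), the scores were 0.317, 1.07 and 0.517 in replicate 1 and 0.884 and 0.445 in replicate 2. The middle piece was the strongest in replicate 1 at this site, and a single cluster of replicate 2 covered it and the first, leaving 10 bp before the rest.

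Fused members scored lower than unbroken ones. The authors gave each cluster a score of unstated scale, which is compared only within a list. The 189 fused members had a median combined-list score of 1.11, with quartiles of 0.799 and 1.46, against 1.40, with quartiles of 1.03 and 1.87, for the 1143 unbroken members. The difference of the medians was -0.29. It was -0.28 when only the break-up in replicate 1 was counted and also -0.28 for replicate 2. It was smaller with widths from 2500 to under 9000 bp (-0.19), with the upper 50% of scores (-0.16) and with clusters within 1 kb merged (-0.13). The 56 members fused in both replicates had the lowest median, 1.02.

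Fused members were also wider, with a median of 6.04 kb against 4.23 kb, and the lower score held at each width. At 3 to 4 kb the medians were 0.401 for 9 fused and 1.31 for 488 unbroken members. In the following steps of 1000 bp they were 0.839 and 1.41, 0.999 and 1.38, 1.21 and 1.55, and 1.19 and 1.67. In the replicates' own lists the difference was smaller, -0.12 in each, when a fused member was given the score of its highest piece. Score and calling come from the same data, so no test was made, and the part of the calling threshold in this difference was not tested.

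**Figure D4:**
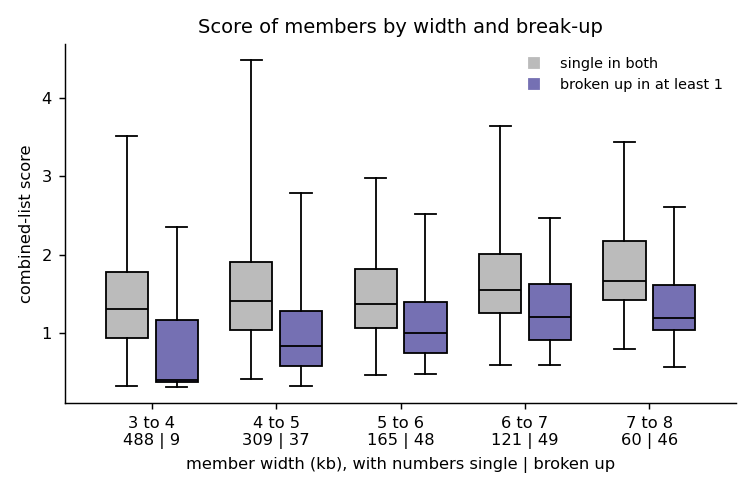
Combined-list score of members that were single in both replicates (grey) and broken up in at least 1 (purple), by member width in steps of 1 kb. Boxes span the quartiles, the line is the median and whiskers reach the lowest and highest member, with the number of members of each kind under the axis. The purple median lies below the grey one at every width, from 0.401 against 1.31 at 3 to 4 kb to 1.19 against 1.67 at 7 to 8 kb.

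Medium clusters often had close company. The nearest combined cluster lay at a median of 1.96 kb, with quartiles of 0.619 and 5.11 kb. For 447 members (33.6%, Wilson 95% interval 31.1 to 36.1%) it lay within 1 kb, against 28.9% of all 3310 clusters found in both replicates. The interval covers counting error only and treats clusters as independent, although members near each other count in pairs. It is no test of the difference from 28.9%. The share and the median distance depend on which clusters are kept. With the upper 50% of scores the share was 13.2% and the median distance 7097 bp, and merging clusters within 1 kb gave 3445 bp. The median distance was 3.00 kb for compact clusters, of which 23.9% had a neighbour within 1 kb, and 1.74 kb for broad ones, of which 34.6% did. By the replicate lists' own widths and neighbours, the median distance of a medium cluster was 1.93 kb in replicate 1 and 2.09 kb in replicate 2, a mean of 2.01 ± 0.111 kb (SD, n = 2), and 31.6 and 31.7% had a neighbour within 1 kb. Distance runs from edge to edge, so at equal spacing of the centres a wider cluster lies nearer to its neighbours, and the part of this in the difference was not tested.

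Spacing barely changed with width inside the class. The median distance was 1.85 kb at 3 to 4 kb and 1.80 kb at 7000 bp and over, and lay between 1.90 and 2.14 kb in the steps between. Across the 1332 members Spearman's rho of distance with width was -0.03, and with score it was 0.11. The 176 members with no neighbour within 10 kb had a median score of 1.45, against 1.31 for the 447 with one within 1 kb. Fused members had neighbours at a median of 1.54 kb and unbroken ones at 2.02 kb. A replicate cluster reaching in from a close neighbour can itself make a member count as fused. The part of this in the difference was not tested.

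**Figure D5:**
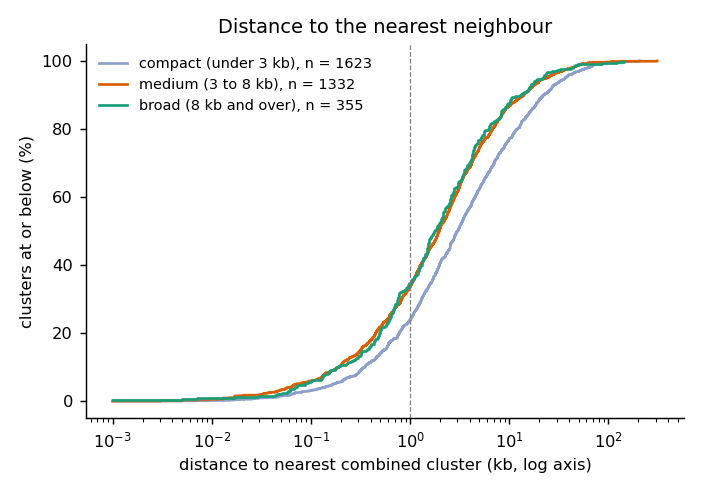
Cumulative percentage of clusters whose nearest combined cluster lies at or below the distance on the x axis (kb, log axis), for the compact, medium and broad classes on the 4 arms. The dashed line marks 1 kb, where the curves stand at 23.9, 33.6 and 34.6%. The medium and broad curves run close together, and the compact curve lies to their right.

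The clusters flanking a member came from the classes about as often as the list holds them. Of 2662 flanks with a neighbour, 39.1% met a compact cluster, which made up 40.4% of the arm list, and 33.5% met another medium one, against 33.1% of the list. Broad clusters were 9.58% of the neighbours and 8.83% of the list. Clusters not found in both replicates were 17.8 and 17.7%. The distances differed more than the identities, with a median gap of 3.40 kb to a medium neighbour, 4.30 kb to a broad one and 6.75 kb to a compact one. Among the 447 members with a neighbour within 1 kb, that neighbour was medium in 176 (39.4%), compact in 122, broad in 49 and not in both replicates in 100.

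Another member was the direct neighbour of 54.7% of members, on 1 side for 564 and on both sides for 164. In the replicate lists the same share was 54.4 and 56.6%. A member counts here when either flank meets another member. Counted by flank, medium clusters were 33.5% of the neighbours, against 33.1% of the arm list. The 54.7% therefore does not show that members lie together more than the make-up of the list gives. No such share over all clusters or the other classes is given here. From one member to the next on an arm the median distance was 30.0 kb, with quartiles of 6.84 and 87.0 kb, so other classes usually stood between. In 288 of 1328 such intervals (21.7%) it was over 100 kb.

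Some borders between clusters were very thin. Of the 2216 gaps beside members, 72 (3.25%) were at most 100 bp and 8 at most 10 bp, and the narrowest left 1 bp. A single replicate cluster ran across 36 of the 2216 gaps (1.62%), 17 in replicate 1 and 20 in replicate 2, with 1 gap crossed in both. The crossed gaps had a median of 58 bp and reached 1135 bp. All 2216 gaps had a median of 5.14 kb, so most were wider than any that was crossed. The 36 gaps and the 189 members broken up in a replicate are counted over different units and are not compared.

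A minority of members stood in runs. Members that followed each other with gaps of at most 2 kb formed 136 runs of 2 or more, which held 292 members (21.9%). There were 118 pairs, 16 runs of 3 and 2 runs of 4, and the other 1040 members stood alone by this measure. No such share over all clusters or the other classes is given here. Whether runs were more frequent than the density of clusters gives was therefore not tested. Both runs of 4 lay on 2R.

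The longer run extended from 2541966 to 2564322 and spanned 22.4 kb, of which members covered 75.8%. Its gaps were 1671 to 1899 bp. The members were 3.78, 4.97, 3.50 and 4.69 kb wide, and they measured 2.95, 4.32, 3.19 and 4.65 kb in replicate 1 and 2.83, 4.64, 3.52 and 4.53 kb in replicate 2. Their combined scores were 1.02, 2.10, 0.955 and 0.916. The second member stood out in replicate 1 (2.21) and in replicate 2 (2.25) as well. Only the fourth was broken up, into 2 clusters in replicate 1.

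The other run of 4, from 18297488 to 18315530, was denser, with 88.6% of its 18.0 kb covered and gaps of 63 to 1543 bp. Its scores were level, between 0.992 and 1.51, and none of its members was broken up. The third member was 5.23 kb wide in the combined list and 4.70 kb in replicate 2, but 2.88 kb in replicate 1. Among the runs of 3, the one of largest span lay on 2L from 5042034 to 5061788. Members filled 94.4% of it, with scores of 1.54, 1.50 and 1.59 and gaps of 129 and 983 bp. All 3 members were unbroken in both replicates.

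At the other extreme, 16 members had no combined cluster within 50 kb. The most isolated was the last cluster listed on 3L, from 24529502 to 24536366, which lay 310.2 kb from its only neighbour. It was 6.87 kb wide and scored 1.07, while the replicates listed it at 5.77 and 5.09 kb. On 3R, the member from 1969420 to 1974070 (4.65 kb) lay 134 kb and 196 kb from its neighbours and scored 1.90. It measured 4.47 kb in replicate 1 and 4.57 kb in replicate 2, close to its combined width.

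Of the next 3, 2 lay on 2R. The member from 14857450 to 14861562 (4.11 kb, score 1.26) was 4.06 kb in each replicate and had medium clusters as neighbours, 109.96 and 147 kb away. The member from 16717584 to 16720956 (3.37 kb, score 1.80) was 2.87 and 3.05 kb in the replicates, with its nearest neighbour at 106 kb. The fifth, on 3L from 17230684 to 17236250 (5.57 kb, score 1.27), was 5.39 and 5.59 kb in the replicates and 94.9 kb from its nearest neighbour. All 5 were unbroken in both replicates, as were 85.8% of all members.

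The longest stretches without a medium cluster were not free of the mark. On 2L no member lay between 13906784 and 15004844, a distance of 1098 kb, but 10 other clusters did, 9 of them compact and 1 not in both replicates, with a median score of 1.04. On the same arm the 709.7 kb from 11284594 to 11994320 held 6 compact and 2 broad clusters, with a median score of 1.17. On 3L the 686 kb from 9966902 to 10652818 held 6 compact clusters, with a median score of 1.08. These scores lie at or above the combined-list median of 1.03.

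Medium clusters scored above the middle of the list, without dominating its top. Their median score was 1.36, with quartiles of 0.993 and 1.82, against 0.890 for compact and 1.60 for broad clusters on the same arms. The list median was exceeded by 956 members (71.8%), against 59.8% of all 3310 clusters found in both replicates. In the replicates' own lists 68.3 and 66.7% of the members exceeded the list median. Scores below 0.5 were found in 34 members (2.55%) and above 3 in 24 (1.80%), with no share over all clusters given for comparison. Of the 100 highest scores in the whole combined list, 29 belonged to members. That is near the 25.1% of the list that members make up.

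Width and score were weakly related across the class as a whole. Spearman's rho was 0.08 across the 1332 members, the same as the 0.08 of broad clusters, against 0.62 for compact clusters and 0.46 for all 3310. Split by break-up, it was 0.13 across the 1143 unbroken members and 0.34 across the 189 fused ones. It was 0.16 and 0.17 for medium clusters of the replicate lists, 0.13 with widths from 2500 to under 9000 bp, and -0.0041 when only clusters in the upper 50% of scores were kept. The median score rose only at the wide end, from 1.31, 1.32 and 1.32 in the first 3 steps of 1000 bp to 1.48 and 1.52 in the last 2. Scores in the replicates ranked members alike, with a rho of 0.94 between replicate 1 and replicate 2. These correlations are across clusters that share libraries, input and caller, and serve as descriptions.

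The highest scoring members were clusters of varied width and surroundings. On each arm the 3 highest were taken. All 12 were a single cluster in both replicates, as were 85.8% of all members. They stood among the 50 highest of the combined list. Their widths ran from 3.17 to 7.10 kb, and in the replicate lists they ranked 52nd or better in the first and 58th or better in the second.

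On 2R the top member, also first in the whole combined list, ran from 13029712 to 13034632 and scored 4.48. It was 4.92 kb wide in the combined list, 4.88 kb in replicate 1 and 4.90 kb in replicate 2. A compact cluster ended 331 bp before it. On 2R followed the member from 15612978 to 15617208, with a score of 3.61, and the member from 5439056 to 5443794, with 3.40. The former measured 4.23 kb, and 3.95 and 3.68 kb in the replicates, and stood 53.9 kb from any other cluster. On 2L the member from 21538352 to 21542656 scored 4.13 and was 4.31 kb wide, with 3.68 kb in replicate 1 and 4.27 kb in replicate 2. Replicate 1 thus lacked part of it, while its score there, 4.02, stayed close to the 4.17 of replicate 2. Next on 2L came the member from 3477250 to 3481148, with 3.52, and that from 13548070 to 13551396, with 3.27.

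On 3L the member from 8667790 to 8674402 scored 3.64 and was 6.61 kb wide, with 6.35 and 6.53 kb in the replicates. The member from 3069164 to 3072372 scored 3.39, and it was 3.21 kb wide in the combined list but 2.75 and 2.74 kb in the replicates. The member from 1462400 to 1465572 scored 3.33, and its width was 3.16 kb in replicate 1 and 2.79 kb in replicate 2. On 3R the widest of the 12, from 11066770 to 11073866, was 7.10 kb in the combined list, 6.99 kb in replicate 1 and 7.10 kb in replicate 2. It scored 3.44. The member from 25075642 to 25082574 scored 3.27 and the one from 21153588 to 21158018 scored 3.18. The former stood 19.5 kb from its nearest neighbour. Among the 12, the nearest neighbour lay between 0.331 and 53.9 kb away. For 2 of them it lay within 2 kb, as it did for 50.8% of all members.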

How the data were processed

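The submitters' processing notes name Bowtie 0.12.7, and per the file headers the regions are on FlyBase release 5. The sources used here give no region caller, threshold or method of combining replicates. Scores were used as deposited by the authors, on an unknown scale. From the lists, widths, gaps (bases between clusters), overlaps of at least 1 bp and medians were computed for regions with a positive score. Replicate values printed with an SD (n = 2) come from the same rule applied to each replicate list. In the comparison of alternatives, the spread for the fused share, the score difference and the cover was taken otherwise. It was the SD of the 2 runs that each left out a replicate. For these results, those runs were therefore compared with a spread made from themselves. No hypothesis test was made, since there is 1 condition, clusters of a list are not replicates, and the rule used the same measurements.

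The members and lists were chosen with earlier results of these data known. Regions were named by position under rules for score, pieces, isolation, runs, gaps and width bounds, with ties among runs broken by span. Genes and sequences are not given, because the reference table follows release 6. Alternatives changed width bounds, overlap, score threshold, merging, neighbours and replicates. The number of members, the fused share, the median distance and the share within 1 kb were recovered from simulated lists. The other measures were not checked in this way. Each simulated piece lay within its own cluster, so pieces reaching in from a neighbour were not covered. Computation used Python 3.11.15 with pandas 2.3.3 and numpy 2.4.6, correlations scipy 1.17.1, intervals statsmodels 0.14.6, and plots matplotlib 3.10.9.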

Additional observations from a re-analysis of the deposited data

How the results depend on the processing

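Of 76 alternatives over 10 results, 34 left the result within a set limit, 41 moved it further and 1 turned its sign. The limit was the spread between replicates, except for the number of members, where it was a factor of 1.5 in the count. That limit is far looser than the replicate SD of the count, 25.5 clusters, so the 34 overstate stability by the replicate spread. The number of members stayed between 952 and 1782. With widths from 2500 to under 9000 bp, 32.9% of members had a neighbour within 1 kb, 68.6% had a member beside them, the median score was 1.32, rho of width and score 0.13, the score difference of fused members -0.19, and density 18.4 per Mb. With 3500 to under 7000 bp these were 33.7% and 42.8% for the neighbours, -0.37 for the difference and 9.85 per Mb. With at least 50% cover in each replicate, they were 33.1%, -0.28 and 13.4 per Mb. Keeping the upper 50% of scores changed most values. The fused share was 11.0%, the share within 1 kb 13.2%, the median distance 7097 bp and the share with a member beside 72.9%. The median score was 1.58, rho -0.0041, the difference -0.16 and density 9.90 per Mb. Cover by replicate clusters is here the mean over the replicates used, taken for each member. Its median was 95.4%, against 93.9% in the main setting. Merging clusters within 1 kb gave 28.3% fused, 0% within 1 kb by construction, 3445 bp, rho 0.10, -0.13, 11.9 per Mb and 92.1% cover. With limits of 500 bp and 2 kb, 21.8 and 50.8% had a near neighbour. With neighbours found in both replicates only, 27.0% did, the median distance was 2657 bp and 64.9% had a member beside them. Leaving out each replicate gave 7.11 to 11.3% fused, 33.7 to 33.8% within 1 kb, rho 0.081 to 0.095, a difference of -0.281 to -0.279 and 95.3 to 95.6% cover. Apart from the merging, the cause was not tested. No paired analysis was possible because no test was made and the input libraries entered no comparison. Read depth is unknown, so what it limits could not be assessed.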

Other observations

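Where medium clusters were many, other clusters tended to be many too. Across the 95 full windows of 1 Mb, the number of members and the number of other clusters found in both replicates had a Spearman's rho of 0.54, a description of windows that share libraries and caller. Medium clusters were between 35.0% (lower quartile) and 45.3% (upper quartile) of the clusters per window.

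Of the regions with a negative score in the combined list, 17 lay on the 4 arms. None overlapped a member, 2 lay within 1 kb of one and 7 within 10 kb, and the median distance was 26.2 kb. All 5309 positive regions of the combined list had an even first and an even last base. At least 1 odd edge was present in 3853 of the 5091 regions of replicate 1 and in 3636 of the 4876 of replicate 2. The widths of members were therefore always odd numbers of bases.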
